A study of Homo sapiens with 6 samples.

Results

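The NAD synthesis and consumption genes described here are 10 named genes, NAMPT, NAPRT, NADSYN1, NMNAT1, NMNAT2, NMNAT3, NADK, SIRT1, SARM1 and CD38, out of 63677 gene identifiers in the deposited count table. They were chosen by symbol, and each symbol matched 1 Ensembl identifier. RNA was measured in UWB1.289 cells, an established human ovarian cancer line that the study describes as BRCA1-deficient and whose genotype the labels give as WT. One group of 3 samples received 4 µM Olaparib, an inhibitor of PARP1, for 24 h, and the other 3 samples received the vehicle DMSO for 24 h. The design text of the series gives the dose as 10 µM, whereas the sample labels give 4 µM. All samples come from 1 cell line, and the study describes 3 independent replicates per condition.

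NAD carries electrons in metabolism and is also consumed as a substrate. Human cells make it from nicotinamide by salvage, from nicotinic acid by the Preiss-Handler route, and from tryptophan by the kynurenine route, and all of these routes pass through the NMNAT enzymes or, for the acid forms, also through NAD synthetase. Poly(ADP-ribose) polymerases such as PARP1, the sirtuins, SARM1 and CD38 split NAD and release nicotinamide, which is either recycled by NAMPT or methylated by NNMT for disposal.

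The 6 libraries held between 35360458 and 39640775 counts, and all were used. The 21729 genes with more than 10 counts in total were normalized with TMM and tested for Olaparib against DMSO with the quasi-likelihood F-test of edgeR, and p was adjusted over all of them (Benjamini-Hochberg). The epithelial and ovarian markers fixed for the label check were all detected, with a summed level of 8900 to 9202 CPM (counts scaled to library size, as edgeR defines it) after DMSO and 9240 to 9658 after Olaparib, and 1 of these 7 markers, PAX8, rose. Of the markers of other cell types, CD3E, CD79A, DCN, LUM and PECAM1 had at most 3 counts in every library. Other markers of the same lists were detected. The fibroblast marker COL1A1 had 237 to 328 counts, the leukocyte markers PTPRC and CD14 had 53 to 75 and 33 to 55, and LYZ had 0 to 4. The endothelial marker CDH5 had 1457 to 1772 counts, and VWF, which rose after Olaparib, had 38 to 69. Counts came from whole cultures, so fewer cells with a transcript and less transcript per cell cannot be told apart.

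Levels were compared between genes as CPM per kilobase of the MANE Select transcript, the reference transcript of each gene. NAPRT, which starts the Preiss-Handler route by converting nicotinic acid to its mononucleotide, had the highest level of the 10 genes with 41.3 ± 2.05 CPM per kilobase (SD over 6 samples). NADSYN1, the NAD synthetase that completes that route, followed with 25.6 ± 0.740, and NADK, the cytosolic kinase that turns NAD into NADP, with 24.5 ± 0.708. The ranges of NADSYN1 and NADK over the 6 samples overlapped, and whether these neighbours differ within samples was not tested. NAMPT, the rate-limiting enzyme of nicotinamide salvage, came next with 17.3 ± 0.497. It was followed by the NAD-dependent deacetylase SIRT1 with 8.63 ± 0.294 and by NMNAT1, the nuclear adenylyltransferase, with 5.04 ± 0.298.

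The remaining genes were low. NMNAT2, the adenylyltransferase of the Golgi and cytosol best known from neurons, had 1.07 ± 0.0955 CPM per kilobase, and the mitochondrial NMNAT3 had 1.01 ± 0.0945, with overlapping ranges. SARM1, the NAD hydrolase that drives axon degeneration, had 0.625 ± 0.0587. CD38, a surface NAD glycohydrolase known from immune cells, was last with 0.0327 ± 0.0104 CPM per kilobase, from 4 to 10 counts per library. Apart from NADSYN1 with NADK and NMNAT2 with NMNAT3, no range overlapped with that of the next gene in this order. The order depends on the length used. Per kilobase of all annotated exons, which for NAMPT span 23.6 kb against 4.36 kb in the MANE Select transcript, NAPRT was still first, but NAMPT fell to rank 6 and SIRT1 rose to rank 3.

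**Figure D1:**
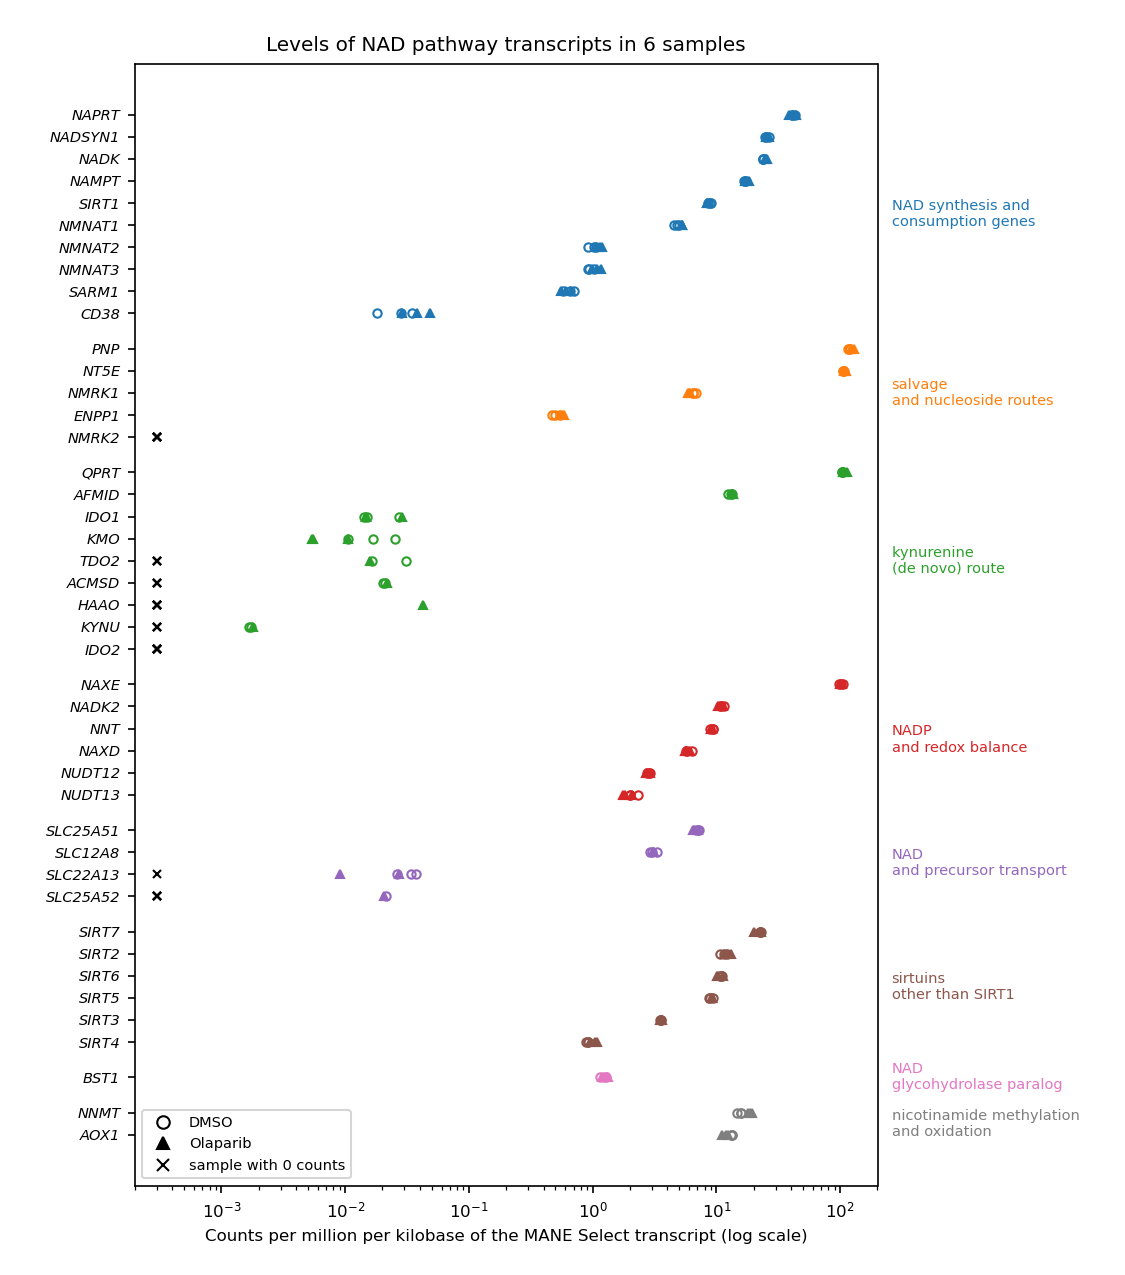
Levels of the 10 NAD synthesis and consumption genes and of 33 other NAD pathway genes as CPM per kilobase on a log axis, with 1 symbol per sample (open circles DMSO, filled triangles Olaparib) and crosses at the left for samples with 0 counts. NAPRT lies at 41.3 and CD38 at 0.0327 among the 10 genes, and most kynurenine route genes lie near or at 0 counts.

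PARP1, the target of Olaparib and itself a consumer of NAD, lay above all 10 genes with 144 ± 1.96 CPM per kilobase (named after its values were seen). Per kilobase of all annotated exons the gap was smaller, with 31.0 for PARP1 and 24.5 for NAPRT. Within the NMNAT family, NMNAT1 made up 69.8% to 71.4% of the summed NMNAT level per kilobase in every sample. Its share averaged 70.5% in the Olaparib samples (SD 0.733, n = 3) and 71.0% in the DMSO samples (SD 0.446, n = 3), a difference of -0.558 percentage points (exact permutation test, two-sided, p = 0.3, where 3 samples against 3 cannot go below 0.1). The log2 ratio of NAMPT to NAPRT per kilobase, which sets nicotinamide salvage beside nicotinic acid use, was -1.23 ± 0.153 (n = 3) after Olaparib and -1.27 ± 0.0714 (n = 3) after DMSO (exact permutation test, two-sided, p = 0.8). The sizes of this share and this ratio depend on the length used. Per kilobase of all annotated exons, NMNAT1 had 4.08, NMNAT2 0.838, NMNAT3 0.158, NAMPT 3.198 and NAPRT 24.5.

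Promoter sequence was set beside these levels because the genes ran from abundant to nearly silent. RefSeq promoter windows on GRCh38.p14 were matched for 32 of 43 NAD pathway symbols, 9 of them among the 10 genes, and the entry nearest the MANE Select start was taken. The start of that entry lay 346 bases from the MANE Select start for NADK, 520 for NMRK2, 589 for SIRT3 and 1349 for SLC12A8. For the other matched genes the starts were the same. No entry was matched for NAPRT, NMRK1, IDO1, IDO2, ACMSD, NAXE, NUDT12, SLC22A13, SIRT7, BST1 and NNMT. The observed number of the dinucleotide CG (which reads the same on both strands) was divided by the number expected from the C and G content. Over all 34943 windows, 48.7% reached a ratio of 0.6. Of the 9 genes with a window, 8 reached it, from 0.643 for SARM1 to 1.01 for NAMPT and 1.03 for SIRT1, and CD38 did not, with 0.195. Stretches just upstream of the start, 5′ to 3′ on the gene's strand with each CG in capitals, show an abundant gene (NAMPT, chr7:106284984-106285103, minus strand), the NMNAT with the highest level (NMNAT1, chr1:9943355-9943474, plus strand) and the nearly silent CD38 (chr4:15778208-15778327, plus strand).
NAMPT: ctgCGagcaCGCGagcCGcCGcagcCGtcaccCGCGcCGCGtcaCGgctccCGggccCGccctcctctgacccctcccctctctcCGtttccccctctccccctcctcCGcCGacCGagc
NMNAT1: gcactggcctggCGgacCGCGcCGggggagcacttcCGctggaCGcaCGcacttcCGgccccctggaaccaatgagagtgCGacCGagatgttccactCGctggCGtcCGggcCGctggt
CD38: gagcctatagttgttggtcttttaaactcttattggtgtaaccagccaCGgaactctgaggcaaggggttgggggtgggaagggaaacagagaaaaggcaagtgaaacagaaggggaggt

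These stretches hold 17 CG in NAMPT, 14 in NMNAT1 and 1 in CD38. Among the NMNAT genes, the ratio was 0.761 for NMNAT1 at 5.04 CPM per kilobase, 0.738 for NMNAT2 at 1.07 and 0.779 for NMNAT3 at 1.01. A high ratio thus did not always go with a high level, nor a low ratio with a low level. QPRT, which makes nicotinic acid mononucleotide from quinolinate at the end of the kynurenine route, had a ratio of 0.0977 and a level of 106 CPM per kilobase. QPRT has 2 RefSeq entries, and counts per gene do not tell which start its transcripts came from. KYNU, the kynureninase of the same route, had a ratio of 0.0805 and 0 or 1 counts per library, and HAAO had a ratio of 0.897 with 0 to 2 counts. The stretches of QPRT (chr16:29679060-29679179, plus strand) and KYNU (chr2:142877544-142877663, plus strand) are shown for this contrast, and each holds 1 CG.
QPRT: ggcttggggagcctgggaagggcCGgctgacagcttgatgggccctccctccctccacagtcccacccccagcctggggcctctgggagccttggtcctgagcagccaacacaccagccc
KYNU: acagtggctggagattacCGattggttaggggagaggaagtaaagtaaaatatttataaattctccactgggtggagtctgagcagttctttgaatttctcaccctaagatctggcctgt

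**Figure D2:**
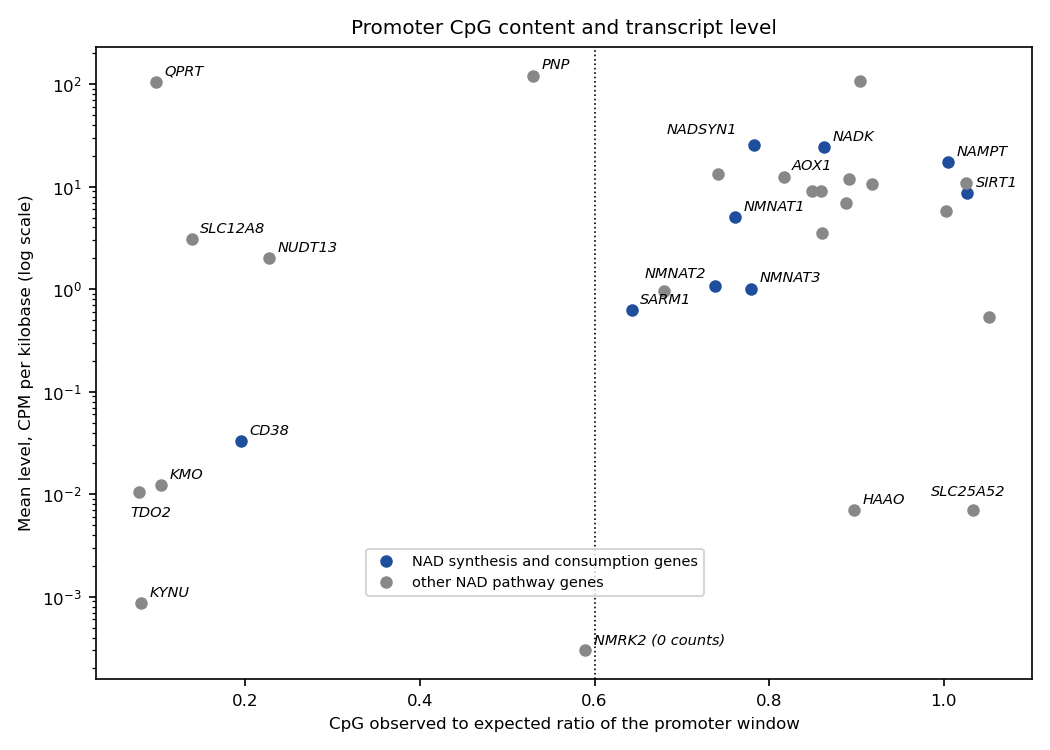
CpG observed to expected ratio of the promoter window (horizontal axis) against the mean level over 6 samples in CPM per kilobase (vertical axis, log scale) for 32 NAD pathway genes, with the 10 chosen genes in blue where they have a window and a dotted line at 0.6. CD38 is the only blue point left of the line, and QPRT and KYNU share a low ratio at 106 and 0.000864 CPM per kilobase.

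The comparison of Olaparib with DMSO asks whether blocking a major NAD consumer was accompanied by a change in the transcripts that make or use NAD. By edgeR none of the 10 genes passed an adjusted p of 0.05, where 3.36% of all genes tested did. At an unadjusted p under 0.05 there were 2 of the 10, NMNAT1 and NMNAT2, against 14.8% of all genes tested, and limma voom called 0 of the 10 (3.09% of all genes tested). DESeq2 called 0 of 8 (4.36% of its 12036 genes with an adjusted p) and gave none for NMNAT3 and CD38. Fitted changes were positive for 7 genes and negative for 3. The median log2 fold change was 0.050 for the 10 genes and -0.0042 over all genes tested. For the 6 genes with the most counts (NAMPT, NAPRT, NADSYN1, NMNAT1, NADK and SIRT1), the 95% intervals reached from a fall of at most 10.4% to a rise of at most 18.0%, so larger changes of these transcripts lay outside the intervals. Values below are normalized counts.

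Of the entry enzymes, NAMPT (ENSG00000105835, chromosome 7, 106248298 to 106285966 on GRCh38) had 2963, 2768 and 2839 normalized counts with Olaparib and 2792, 2730 and 2842 after DMSO. The groups overlapped, and the highest and the next highest value came one from each group. Its log2 fold change was 0.035 (standard error, SE, 0.039, 95% interval -0.045 to 0.11, edgeR adjusted p = 0.753). The processed pseudogene NAMPTP1, a copy that can share reads with NAMPT, had 54 to 63 counts, at most 2.36% of those of NAMPT, and an edgeR adjusted p of 0.894.

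NAPRT (ENSG00000147813, chromosome 8, 143574785 to 143578649) had 2414, 2787 and 2589 normalized counts with Olaparib and 2556, 2695 and 2556 after DMSO. The Olaparib samples held both its lowest and its highest value. The log2 fold change was -0.0034 (SE 0.044, 95% interval -0.093 to 0.086, edgeR adjusted p = 0.989), and it went to 0.048 without Olaparib replicate 1 and to 0.023 without DMSO replicate 2. Relative to counting noise, replicates of NAPRT spread more than those of the other 9 genes. Its chi-square per degree of freedom within groups was 7.87, where 1 is counting noise and the other 9 genes had 0.407 to 2.65. This does not compare the spread as a share of the mean. For NAPRT, 30.1% of the exonic bases overlap a gene on the other strand that had 5 to 11 counts, and the strand setting of the counting is not given in the sources used here.

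NADSYN1 (ENSG00000172890, chromosome 11, 71453109 to 71524107) had 2512, 2571 and 2639 normalized counts with Olaparib and 2478, 2670 and 2539 after DMSO, with the Olaparib values inside the DMSO range. Its log2 fold change was 0.0064 (SE 0.040, 95% interval -0.075 to 0.088, edgeR adjusted p = 0.965).

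The NMNAT enzymes join the mononucleotide to ATP and are the step that all routes share. NMNAT1 (ENSG00000173614, chromosome 1, 9943428 to 9985501) had 740, 740 and 732 normalized counts with Olaparib and 676, 698 and 638 after DMSO. All 3 Olaparib samples lay above all 3 DMSO samples, and they lay closer together. The log2 fold change was 0.14 (SE 0.050, 95% interval 0.037 to 0.24, unadjusted p = 0.00901 and edgeR adjusted p = 0.140), so the difference did not pass the correction over all genes. NMNAT2 (ENSG00000157064, chromosome 1, 183248237 to 183418380) had 217.5, 233.7 and 242.4 normalized counts with Olaparib and 210.1, 216.6 and 186.7 after DMSO. Its groups were separate by a narrow gap, 217.5 against 216.6, with a log2 fold change of 0.18 (SE 0.086, 95% interval 0.0035 to 0.35, edgeR adjusted p = 0.322). NMNAT3 (ENSG00000163864, chromosome 3, 139560180 to 139678017) had 88.0, 74.8 and 81.5 normalized counts with Olaparib and 70.0, 77.4 and 69.2 after DMSO, which overlapped. The log2 fold change was 0.17 (SE 0.14, 95% interval -0.11 to 0.46, edgeR adjusted p = 0.622).

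The 3 fitted changes of the NMNAT genes thus lay between 0.14 and 0.18, all positive and none past the threshold. Summed per kilobase, a quantity chosen after these values were seen, NMNAT transcripts came to 7.53, 7.43 and 7.51 CPM per kilobase after Olaparib and 6.80, 7.08 and 6.39 after DMSO. These groups did not overlap, which fixes the exact permutation test, two-sided, at its smallest p of 0.1. Most of the sum is NMNAT1, whose groups were already separate, so that p is not used as support.

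NADK (ENSG00000008130, chromosome 1, 1751232 to 1780457) had 2969, 3107 and 3029 normalized counts with Olaparib and 2902, 2902 and 2898 after DMSO. The Olaparib samples were all higher, and the DMSO samples lay close together. The log2 fold change was 0.065 (SE 0.038, 95% interval -0.011 to 0.14, edgeR adjusted p = 0.439). NADK, NMNAT1 and NMNAT2 were the 3 of the 10 genes whose groups did not overlap, against 19.3% of all genes tested. NADK2, the mitochondrial NAD kinase, had a level of 10.9 ± 0.380 CPM per kilobase and a log2 fold change of -0.027 (edgeR adjusted p = 0.844).

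**Figure D3:**
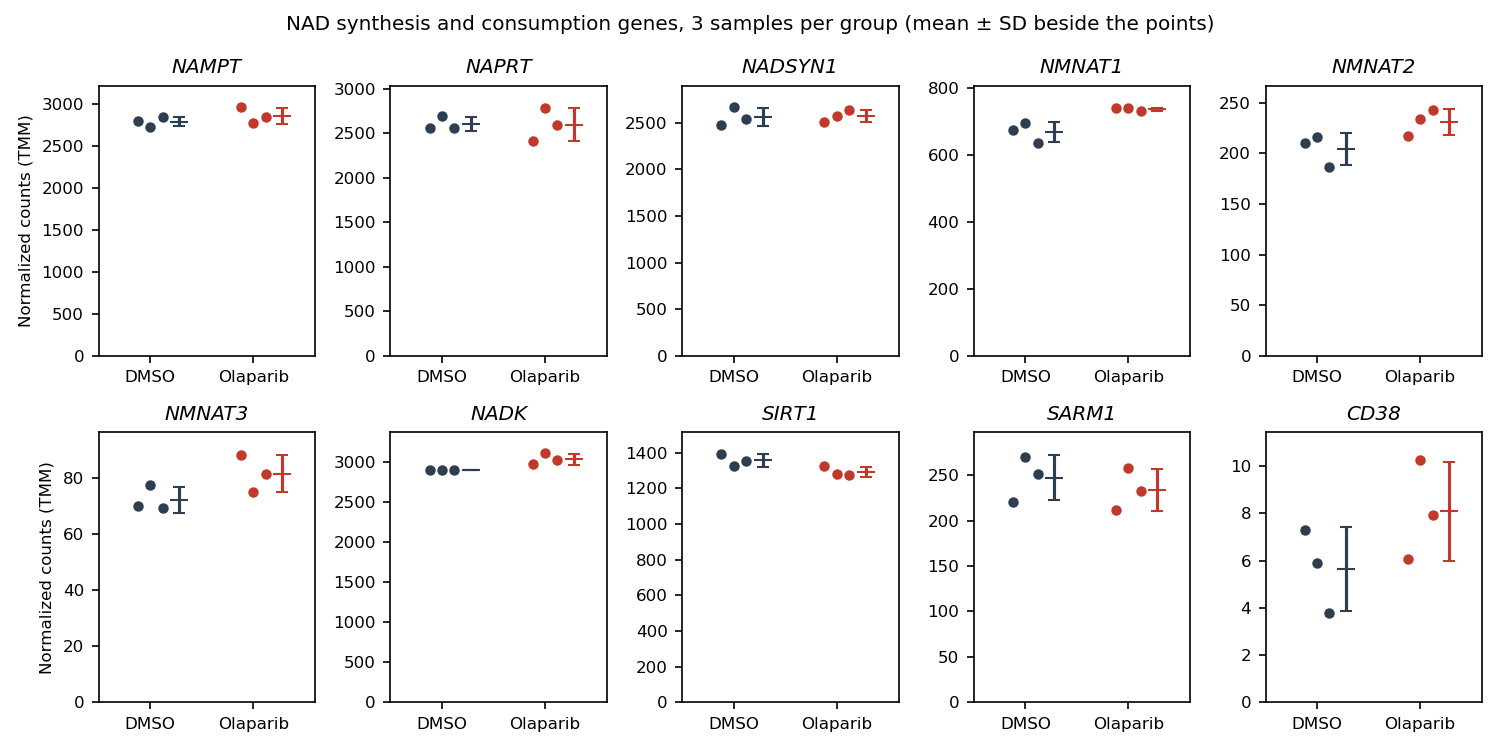
Normalized counts of the 10 genes in each of the 3 DMSO and 3 Olaparib samples, with the mean and SD of each group beside the points and every vertical axis starting at 0. Only in NMNAT1, NMNAT2 and NADK do the groups not overlap, and no gene passed the adjusted test.

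Among the consumers, SIRT1 (ENSG00000096717, chromosome 10, 67884656 to 67918390) had 1326, 1278 and 1277 normalized counts with Olaparib and 1395, 1324 and 1353 after DMSO. The lowest DMSO sample, 1324, lay just under the highest Olaparib sample. Its log2 fold change was -0.069 (SE 0.044, 95% interval -0.16 to 0.020, edgeR adjusted p = 0.504). SARM1 (ENSG00000004139, chromosome 17, 28364356 to 28404049) had 211.4, 257.3 and 232.5 normalized counts with Olaparib and 220.5, 269.5 and 251.1 after DMSO, and the groups overlapped over most of their range. Its log2 fold change was -0.082 (SE 0.088, 95% interval -0.26 to 0.096, edgeR adjusted p = 0.738). For SARM1, 45.3% of the exonic bases overlap other genes, mostly SLC46A1 on the other strand with 273 to 349 counts, so the SARM1 counts are uncertain.

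CD38 (ENSG00000004468, chromosome 4, 15778275 to 15853232) had 6, 10 and 8 counts after Olaparib and 7, 6 and 4 after DMSO. The groups overlapped, and the log2 fold change of 0.52 had a 95% interval from -0.42 to 1.45 (SE 0.46, edgeR adjusted p = 0.673). At this depth a rise of 174% or a fall of 25.3% lay at the limits of the interval, so a change was not detectable. Of the 5 leukocyte markers, CD3E and CD79A were at or under 3 counts in every library and LYZ had 0 to 4, but PTPRC with 53 to 75 counts and CD14 with 33 to 55 were both above CD38. CD14 had 44.5, 56.4 and 48.7 normalized counts with Olaparib against 39.7, 41.2 and 31.3 with DMSO, without overlap (edgeR unadjusted p = 0.0302, adjusted p = 0.260). None of the 5 passed the adjusted test, and their summed level was 3.11 to 3.73 CPM after Olaparib and 2.57 to 3.18 after DMSO. BST1, the paralog of CD38 with the same kind of activity, had 87 to 99 counts and an edgeR adjusted p of 0.874 (named after its values were seen). Whether other cells had a part in the CD38 counts was not tested.

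The other sirtuins also use NAD. In CPM per kilobase of the MANE Select transcript over the 6 samples, the nucleolar SIRT7 had the highest level with 22.1 ± 0.988, followed by SIRT2 with 11.8 ± 0.755, SIRT6 with 10.7 ± 0.514, SIRT5 with 9.10 ± 0.243, SIRT3 with 3.56 ± 0.0407 and SIRT4 with 0.966 ± 0.0824. The ranges of SIRT2 and SIRT6 overlapped, at 10.7 to 13.0 and 10.1 to 11.4. The order depends on the length used. Per kilobase of all annotated exons, SIRT1 with 7.76 was above SIRT6 with 6.25 and SIRT7 with 6.23, and SIRT5 with 3.68 was above SIRT2 with 3.55. None of the 6 other sirtuins passed an adjusted p or an unadjusted p of 0.05, limma voom called 0 of them, and DESeq2 called 0 of the 5 to which it gave an adjusted p (SIRT4 got none). Their fitted log2 fold changes ran from -0.046 for SIRT6 to 0.18 for SIRT4.

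A list of 33 other NAD pathway genes gave the surroundings of the 10. Of these, 25 were tested, of which 1 rose and 1 fell past the adjusted threshold, against 2.15% of all genes tested that rose and 1.21% that fell. The median log2 fold change of the 25 was 0.0080. In the kynurenine route, 6 of 9 genes (TDO2, IDO1, IDO2, KYNU, HAAO and ACMSD) had at most 3 counts in every library and were not tested, and KMO had 1 to 5 counts (KMO and AFMID were named after values were seen). TDO2 and IDO1 open that route and KMO, KYNU and HAAO lead it to quinolinate. QPRT, the step after them, had 8089 to 9146 counts, and AFMID, the formamidase near the start, had 752 to 878. QPRT differed by 0.066 on the log2 scale (SE 0.030, edgeR adjusted p = 0.286). NMRK2, a muscle nicotinamide riboside kinase, had 0 counts in all 6 libraries, which does not exclude a very low level. Its paralog NMRK1 had 380 to 455 counts. NMRK1 had 399, 390 and 391 normalized counts with Olaparib and 425, 446 and 425 after DMSO. All Olaparib samples of NMRK1 were lower, by -0.14 on the log2 scale (SE 0.060, edgeR adjusted p = 0.257). SLC25A52, a paralog of the mitochondrial NAD carrier SLC25A51, also had at most 3 counts in every library. NUDT13 had the lowest log2 fold change among the other genes whose mean count reached 20, at -0.16 (SE 0.10, edgeR adjusted p = 0.522).

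**Figure D4:**
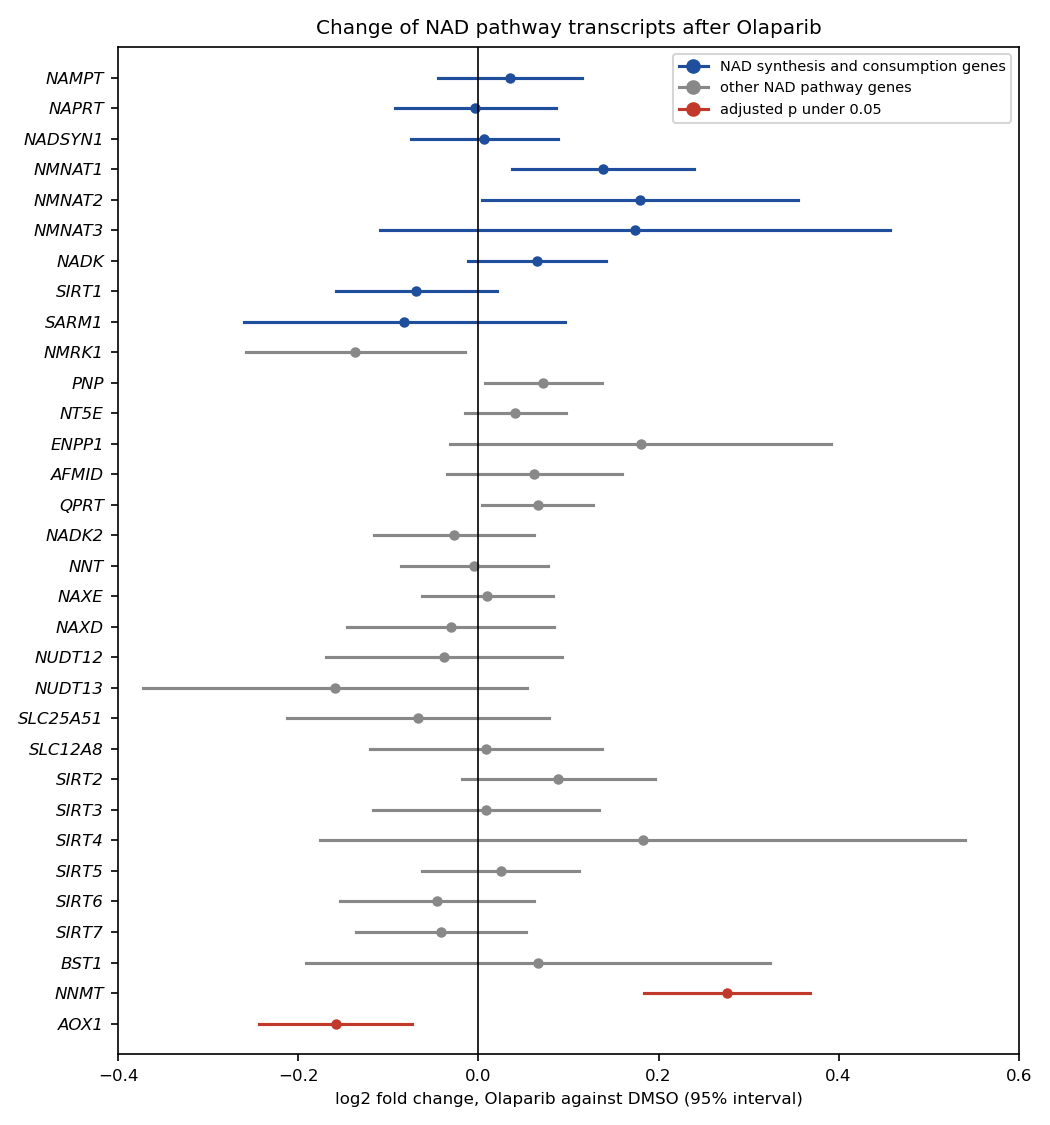
Log2 fold changes of Olaparib against DMSO with 95% intervals for NAD pathway genes whose mean count reached 20 (that of CD38 did not), with the chosen genes in blue and genes past an adjusted p of 0.05 in red. NNMT at 0.28 and AOX1 at -0.16 are the red points. The intervals of NMNAT1, NMNAT2, PNP and QPRT lie just above 0, and that of NMRK1 lies just below 0.

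Both genes that passed the test, NNMT and AOX1, make up the list for nicotinamide methylation and oxidation. That list was chosen with earlier results of these data known, so their shared theme is not a result. Nicotinamide is the product that the NAD consumers release. NNMT, which methylates nicotinamide and so takes it away from NAMPT, rose. It had 1412, 1365 and 1447 normalized counts with Olaparib and 1196, 1108 and 1185 after DMSO, and every Olaparib sample was higher. The log2 fold change of NNMT (ENSG00000166741, chromosome 11, 114257787 to 114313536) was 0.28 (SE 0.045, 95% interval 0.18 to 0.37, edgeR adjusted p = 1.7e-04), a rise of 21.1%.

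AOX1, the aldehyde oxidase that turns methylnicotinamide into pyridones, fell. It had 2294, 2059 and 2197 normalized counts with Olaparib and 2442, 2400 and 2468 after DMSO, and every Olaparib sample was lower. The log2 fold change of AOX1 (ENSG00000138356, chromosome 2, 200586014 to 200677064) was -0.16 (SE 0.042, 95% interval -0.24 to -0.073, edgeR adjusted p = 0.0260). The adjusted p of AOX1 was 0.185 without Olaparib replicate 2, 0.0770 without Olaparib replicate 3, 0.0538 without DMSO replicate 1, 0.0750 without DMSO replicate 2 and 0.125 without DMSO replicate 3, and the call held only without Olaparib replicate 1 (0.00924). The AOX1 stretch upstream of its start (chr2:200585894-200586013, plus strand, 6 CG in capitals) is printed as the one of the called pair with a RefSeq window, which had a CpG ratio of 0.816.
AOX1: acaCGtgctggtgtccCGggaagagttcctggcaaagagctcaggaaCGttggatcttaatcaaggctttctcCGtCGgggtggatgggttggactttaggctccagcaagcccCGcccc

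Set against each other, a ratio chosen after the values were seen, the log2 ratio of NNMT to AOX1 per kilobase was 0.59, 0.70 and 0.69 after Olaparib and 0.26, 0.18 and 0.23 after DMSO. The means differed by 0.44. The ratio restates the 2 calls above, so it is a description. Its groups did not overlap, so the exact permutation test, two-sided, gave its smallest p of 0.1, which is not used as support. Neither NAMPT nor any other of the 10 genes passed the adjusted edgeR test alongside NNMT and AOX1.

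**Figure D5:**
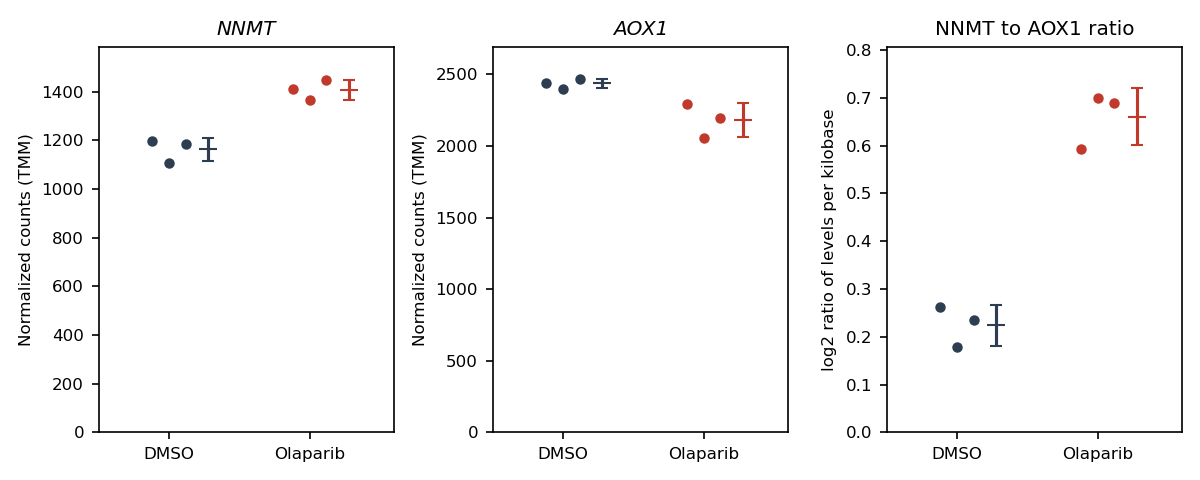
Normalized counts of NNMT and AOX1 and the log2 ratio of their levels per kilobase in each of 3 DMSO and 3 Olaparib samples, with the mean and SD of each group beside the points and axes starting at 0. NNMT is higher and AOX1 lower in every Olaparib sample, and the log2 ratio is at most 0.26 after DMSO and at least 0.59 after Olaparib.

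The pattern of NAMPT over the 6 samples was compared with that of 11996 genes whose mean count reached 100, by the root mean square difference of log2 CPM centred on each gene's mean. The nearest were HAGLR, MAP2K5 and SLC39A8, with differences of 0.0058, 0.010 and 0.011 on the log2 scale, where the median over all genes compared was 0.067. NAMPT itself did not pass the adjusted test, and the nearest of 11996 genes over 6 samples are close by selection. Whether these genes are linked to NAMPT was not tested. Of the other chosen genes, NADK was nearest to NAMPT at 0.053 and rank 3609, and SARM1 was farthest at 0.16 and rank 11443, while NMNAT3 and CD38 were under the minimum count.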

How the data were processed

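Stranded poly(A) libraries of 3 Olaparib and 3 DMSO samples of UWB1.289 cells were sequenced by the authors. The authors trimmed adapters with Trimmomatic, mapped reads to GRCh38 with STAR, identified duplicates using Picard and counted reads per gene using featureCounts. Whether duplicates were removed and which strand setting was used is not given in the sources used here. The deposited table holds raw counts per gene, whole numbers without normalization, and each row was matched to its sample by the sample description.

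Genes with more than 10 counts in total were normalized with TMM (factors 0.995 to 1.01) and tested with edgeR 4.0.16 in R 4.3.3, with DESeq2 1.42.0 and limma 3.58.1 as alternatives. Standard errors are the fold change divided by the root of the F statistic. Single values per sample were compared by exact permutation. The scripts were tested on simulated data. Chi-square per degree of freedom between replicates was 1.81 to 4.11 over 15525 genes, so all samples were counted separately. Gene names, coordinates and MANE Select lengths came from GENCODE release 44, which held 96.0% of the identifiers tested. The lengths were taken from there because the count table gives identifiers and counts alone. P-values rest on the spread between these 6 samples. In edgeR the spread of each gene is drawn toward that of other genes (median total degrees of freedom 33.3).

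The 10 genes and the other lists were chosen with earlier results of these data known. All 10 genes are named. Other pathway genes are named when called, at or under 3 counts in every library, highest or lowest in fold change, or listed for their level. Alternatives were other tests, scalings and low-count filters, a fold threshold, a replicate block, leaving out each sample, and another gene length.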

Additional observations from a re-analysis of the deposited data

How the results depend on the processing

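In none of the alternatives did any of the 10 genes pass an adjusted p of 0.05. These were DESeq2, limma voom, 2 other scalings, 2 other filters, the fold threshold, the replicate block and leaving out each sample (CD38 could not be fitted with at least 10 counts in every sample, and DESeq2 gave NMNAT3 and CD38 no adjusted p). The number of genes called over the whole table moved from 730 to 262 with the fold threshold of 1.2 and to 1322 with the replicate block, and lay between 398 and 870 with 1 sample left out (398 without DMSO replicate 2, 401 without DMSO replicate 3, 439 without Olaparib replicate 3). Whether the replicate numbers pair the samples could not be settled. The correlations of deviations across 11997 genes for equal numbers were -0.15, 0.26 and -0.27, and not every sample was nearest to its own number. The highest was 0.44, for Olaparib replicate 3 with DMSO replicate 1. Deviations from the mean of 3 samples depend on each other, so these correlations cannot decide it. With the block, NMNAT1 had an adjusted p of 0.0581, and no call among the NAD pathway genes named here changed.

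Of the other NAD pathway genes, 1 to 2 were called with 1 sample left out, NNMT each time (adjusted p at most 0.00614), and their median log2 fold change was -0.0080 to 0.019. With the fold threshold of 1.2, which is 0.263 on the log2 scale, NNMT at 0.276 stayed called and AOX1 at -0.159 did not. Fold changes near 0 changed sign with 1 sample left out, within -0.057 to 0.048 for NAPRT, -0.015 to 0.037 for NADSYN1, -0.050 to 0.0033 for NADK2, -0.0053 to 0.021 for SIRT3 and -0.081 to 0.013 for SIRT7. With upper quartile scaling NADSYN1 went to -0.0025 and SIRT3 to -3.3e-04. Per kilobase of all annotated exons, a length added after seeing the data, levels were 3.198 CPM per kilobase for NAMPT, 24.5 for NAPRT, 4.22 for NADSYN1, 4.08 for NMNAT1, 0.838 for NMNAT2, 0.158 for NMNAT3, 14.2 for NADK and 7.76 for SIRT1. Depth limited CD38 most, and NMNAT3, with 67 to 87 counts, had a standard error of 0.14.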

Other observations

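Beside QPRT, 3 other NAD pathway transcripts outside the 10 genes reached about the same level per kilobase of the MANE Select transcript. PNP, the purine nucleoside phosphorylase that can split nicotinamide riboside, had 121 ± 4.48 CPM per kilobase over the 6 samples (SD). NT5E, the surface nucleotidase CD73, had 108 ± 2.36, and NAXE, which repairs hydrated NADH, had 102 ± 2.79, although 44.8% of the exonic bases of NAXE overlap GPATCH4 on the other strand. Per kilobase of all annotated exons these levels were 30.5 for PNP, 84.5 for NT5E and 11.2 for NAXE, with 63.3 for QPRT, so their order depends on the length used. PNP had an edgeR adjusted p of 0.261, with all 3 Olaparib samples above all 3 DMSO samples and an unadjusted p of 0.0305. All 3 were picked with their values in view.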
